A study of Mus musculus with 6 samples.

Results

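Collagens, laminins and integrins were read in the liver of insulin-resistant (IR) mice. They are the structural chains of the extracellular matrix and the receptors by which cells hold on to it. Genes were chosen by name alone: symbols that start with Col and a digit, with Lama, Lamb or Lamc and a digit, or with Itga or Itgb, leaving out pseudogenes (names with -ps) and opposite-strand transcripts (names ending in os). The rule took 87 of the 54532 genes in the count table: 44 collagen chains, 11 laminin chains, 27 integrin chains and 5 genes that carry such a name without being a chain of the family. The last are Col4a3bp (a ceramide transporter), Itgb1bp1, Itgb1bp2, Itgb3bp and Itgbl1, and they stay out of the family medians.

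RNA was sequenced from whole liver of 6 male C57BL/6J mice that had eaten a high-fat diet (HFD) for 6 weeks from 8 weeks of age. After a fast of 16 h, 3 mice received insulin intraperitoneally at 0.75 units per kg (IR insulin) and 3 received the bovine serum albumin (BSA) carrier (IR vehicle), and livers were taken 6 h later. The diet, the fast and the strain were thus shared by every animal, and the comparison asks what insulin alters in a liver that is already resistant to it. Each library came from 1 mouse, with 3 per group.

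Collagen chains are secreted and wind around one another into a helix. Some form banded fibrils and others the sheet-like network of the basement membrane. Laminins are assembled from an alpha, a beta and a gamma chain and lay down the first layer of a basement membrane, while integrins are surface receptors of an alpha and a beta chain that bind these proteins or the counter-receptors of other cells. In normal liver the matrix is sparse: stellate cells are the classical source of fibrillar collagen, and the sinusoids lack a continuous basement membrane. In bulk liver RNA, fewer cells of a type and less RNA per cell cannot be told apart.

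The libraries held 18449986 to 21827619 counts, and the 87 genes took 0.0758 to 0.138% of them. Levels are given as CPM, a gene's counts over the TMM-scaled size of its library, and a level per kilobase divides CPM by the length of the longest transcript. The vehicle libraries did not resemble one another closely. Vehicle replicate 2 had 16470 genes with a count, against 18389 to 18874 in the other 5 libraries, and its levels declined with the GC content of the transcript. Across 13367 genes the deviation of that library from the median of the other 5 had a Spearman's rho of -0.67 with GC content (a description: the points share 1 library). This rank correlation was -0.15 in vehicle replicate 1, 0.15 in vehicle replicate 3, and 0.24, 0.10 and 0.31 in insulin replicates 1, 2 and 3. All insulin libraries and vehicle replicate 3 thus leaned toward genes of high GC content, relative to a median that included vehicle replicate 2. Vehicle replicate 3 held the highest value of the 6 libraries for 3130 of 13377 genes (23.4%), second to vehicle replicate 2 with 4787 (35.8%). For results that turn on one library, values without it are given.

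Of the 87 members, 55 passed the filter on low counts and were tested: 20 collagens, 11 laminins, 21 integrins and 3 of the genes that share only the name. None of the 55 had an adjusted p under 0.05 in edgeR's quasi-likelihood test, as was so for 0% of all 13377 genes tested (lowest adjusted p 0.852), and DESeq2 likewise gave none over all genes (lowest adjusted p 0.237). At an unadjusted p under 0.05 edgeR called 2 members, and these 2 also met the criteria of the study's methods, a log2 fold change of 0.35 or more in size and an unadjusted p under 0.05. Col4a2 was higher with insulin, 1 of 55 members (1.82%) against 1.0% of all genes tested. Itga8 was lower, again 1 of 55 members (1.82%) against 1.86% of all genes. DESeq2 placed the same 2 members past the criteria. Leaving out vehicle replicate 1 raised the calls over all genes from 134 higher and 249 lower to 616 and 733.

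In 7 of the 55 tested members the insulin and vehicle values did not overlap. In 5 of them every insulin library lay above every vehicle library (Col4a2, Col16a1, Itga3, Itgam and Itga10), which is 9.09% of the members tested beside 6.25% of all genes. In the other 2, Itga1 and Itga8, every insulin library lay below, which is 3.64% beside 6.04%. By sign alone, 30 members had a positive and 25 a negative log2 fold change (insulin minus vehicle). The median was 0.07 for collagens, 0.04 for laminins and 0.04 for integrins, against -0.02 over all genes tested. With a correction of each library for GC content these medians were negative, at -0.14, -0.19 and -0.09 against -0.06 over all genes. Single libraries moved them further. Without vehicle replicate 3 the collagen median was 0.47 and the integrin median 0.22 (all genes 0.02), and without vehicle replicate 2 the collagen median was -0.13 and the laminin median 0.25 (all genes 0.01). The family medians thus had no stable sign over these settings.

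**Figure D1:**
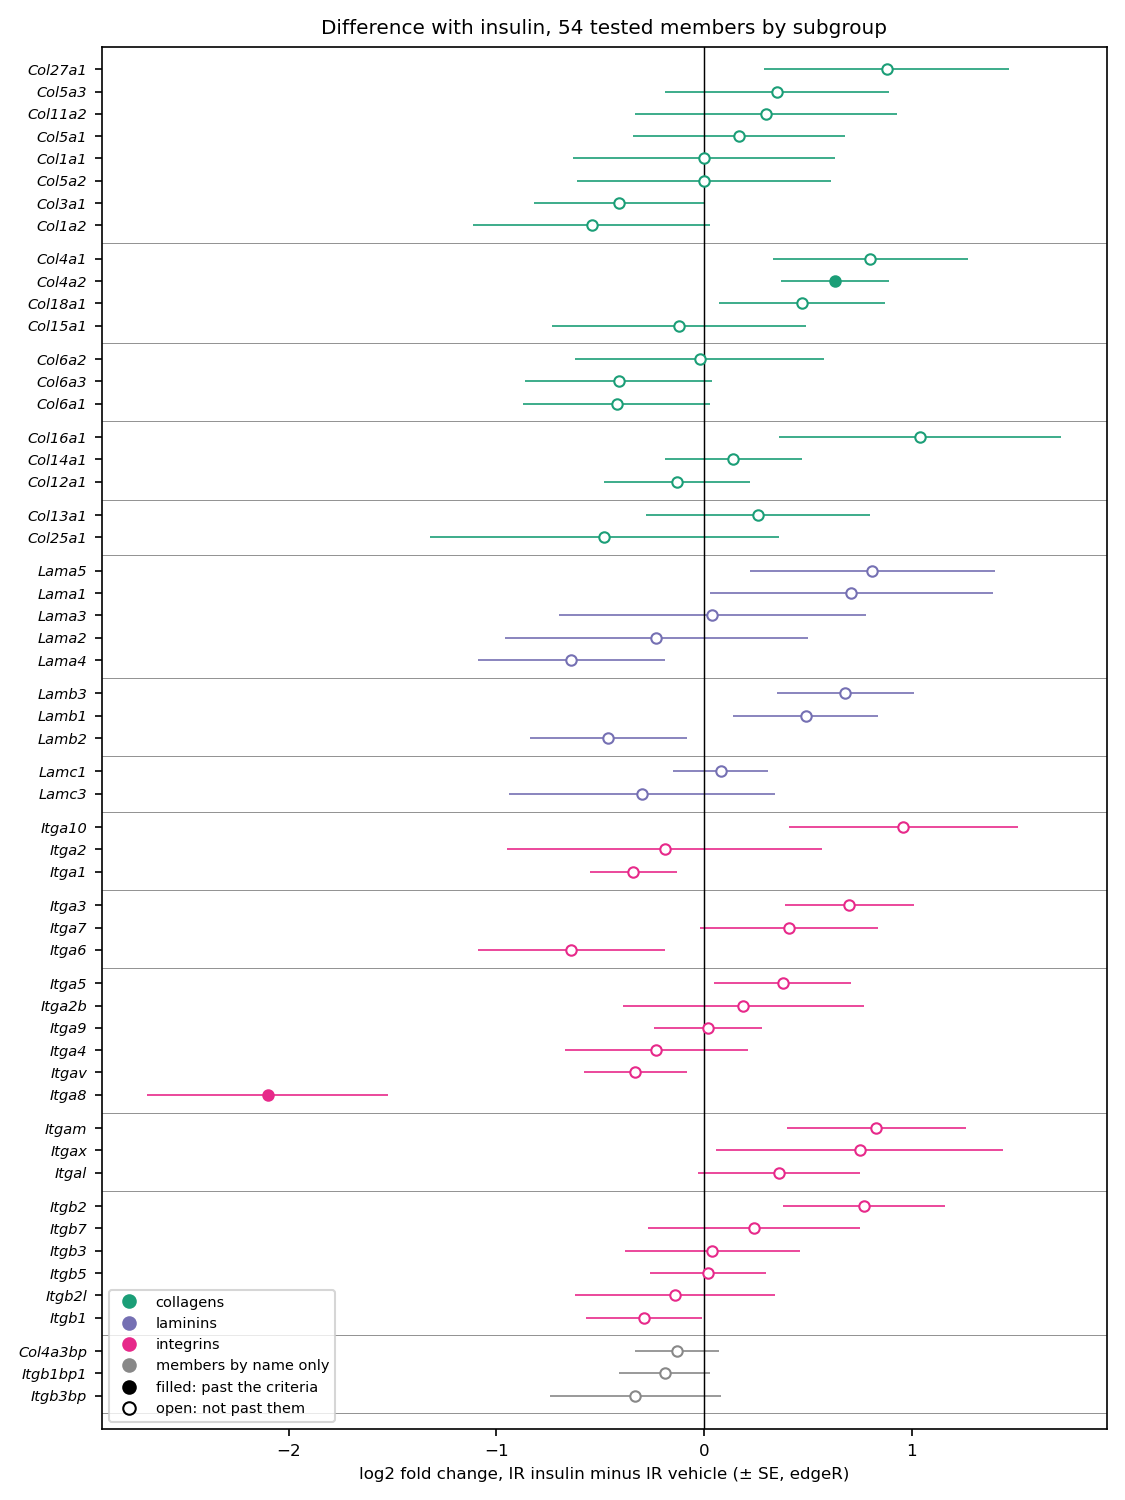
Log2 fold change of IR insulin minus IR vehicle (x axis, ± SE from edgeR, 3 livers per group) for 54 of the 55 tested members, ordered by subgroup, with filled points for members past the criteria. Only Col4a2 at 0.63 and Itga8 at -2.10 are filled, and most other error bars reach or nearly reach 0.

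The level per kilobase ran over more than 3 orders of magnitude, from 85.3 CPM per kilobase for Col18a1 to 0.0520 for Lama2. Above 10 CPM per kilobase lay 4 of the 55 tested members: Col18a1, Itgb1 (52.7), Itgb5 (13.5) and Col4a1 (12.9). A further 20 lay between 1 and 10, and 31 lay below 1. In every library Col18a1, the chain whose C-terminal fragment is endostatin, made up most of the summed collagen CPM, from 55.7% in vehicle replicate 2 to 78.1% in vehicle replicate 3. Itgb1, the beta chain shared by most matrix-binding integrins, made up 45.1 to 62.5% of the summed integrin CPM.

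The other 32 members were not tested, and 6 of these had no count in any library: Col2a1, Col9a1, Col11a1, Col19a1, Col26a1 and Col6a4. Several of the 6, such as Col2a1, Col9a1 and Col11a1, are known from cartilage. The 26 members with some counts held 1 to 85 counts in total over the 6 libraries, with a median of 13.5. The highest of them was Col4a5, a basement membrane chain of the kidney filter, which had 0.370, 0.246 and 2.24 CPM in the vehicle livers (replicates 1, 2 and 3) and 0.405, 0.390 and 0.415 CPM with insulin. Vehicle replicate 3 alone stood above 1 CPM.

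**Figure D2:**
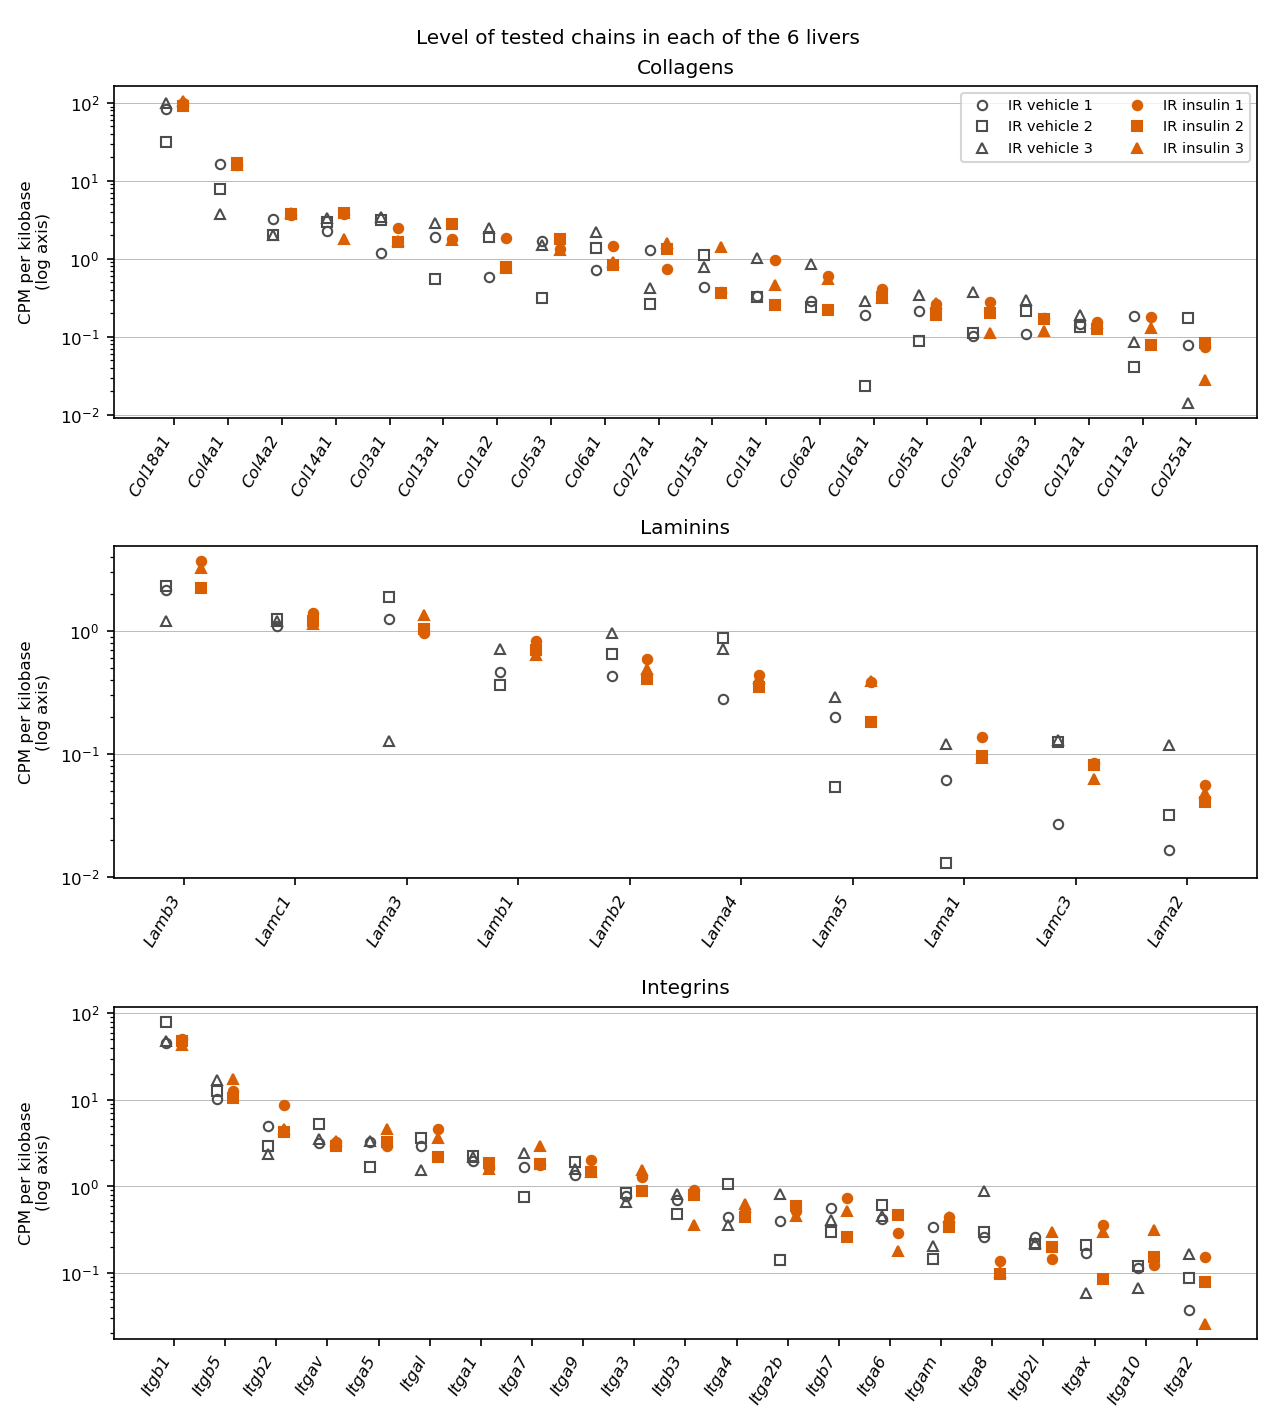
Level in CPM per kilobase (log axis) of 51 of the 52 tested collagen, laminin and integrin chains in each of the 6 livers, with open symbols for vehicle and filled symbols for insulin. The insulin livers lie close together for Col4a1 and Col4a2, and vehicle replicate 3 lies far below the other libraries for Lama3, at 1.34 CPM.

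Col4a1 and Col4a2 encode the alpha 1 and alpha 2 chains of type IV collagen, the main network collagen of basement membranes. The genes lie head to head on chromosome 8 of build 38, Col4a1 (ENSMUSG00000031502) at chr8:11198423-11312826 on the minus strand and Col4a2 (ENSMUSG00000031503) at chr8:11312805-11449287 on the plus strand. Their annotated 5′ ends overlap by 22 bases. The stretch is shown because both transcripts start there, so that the same DNA belongs to both promoters. It was read from the RefSeq promoter table (GRCm38.p6, chr8:11312801-11312830, plus strand), and capitals mark the bases from the start site of Col4a2 to that of Col4a1.
Col4a1 and Col4a2: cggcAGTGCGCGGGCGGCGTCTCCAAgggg
The promoter windows of the table, 250 bases before to 50 bases after each start, shared 78 bases, and their GC content was 74.0 and 73.7%. Reads that fall on the overlap cannot be assigned to either gene if counting ignored strand, which is not given in the sources used here, but 22 bases are a small part of transcripts of 6615 and 6450 bases.

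Col4a2 had 21.1, 12.9 and 12.9 CPM in the vehicle livers (in the order of replicate numbers, as throughout) and 23.7, 24.1 and 25.0 CPM in the insulin livers. All insulin livers were above all vehicle livers, by a narrow margin over vehicle replicate 1, and the insulin values spanned little more than 1 CPM. The means were 15.6 ± 4.73 and 24.3 ± 0.684 CPM (SD, n = 3 each), and the log2 fold change was 0.63 ± 0.26 (SE, edgeR unadjusted p = 0.0411, adjusted p = 0.852). Without vehicle replicate 1 the log2 fold change was 0.91 (unadjusted p = 0.00650). Without vehicle replicate 2 or 3 it was 0.52 and 0.51, and the unadjusted p was 0.0523 and 0.105. Without an insulin library it was 0.62 to 0.66, and the unadjusted p was 0.0924 to 0.103, so that the call held only when vehicle replicate 1 was the library left out. With a correction of each library for GC content it was -0.08 (unadjusted p = 0.839), so that both the direction and the call were lost. Transcripts of Col4a2 are 60.6% GC.

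Col4a1 stood at 109, 52.2 and 25.0 CPM in the vehicle livers and at 105, 112 and 107 CPM in the insulin livers. Vehicle replicate 1 was level with the insulin livers, and vehicle replicates 2 and 3 were below them. The group means were 62.1 ± 42.9 and 108 ± 3.94 CPM (SD, n = 3 each), and the log2 fold change was 0.80 ± 0.47 (SE, unadjusted p = 0.128). Without vehicle replicate 1 it was 1.49 (unadjusted p = 0.00551), without vehicle replicate 3 it was 0.42 (unadjusted p = 0.240), and with the GC correction it was 0.28 (unadjusted p = 0.595).

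Col18a1 (ENSMUSG00000001435), a collagen of basement membranes that carries heparan sulfate, had 465, 177 and 558 CPM in the vehicle livers and 560, 511 and 591 CPM in the insulin livers. Vehicle replicate 2 was the low library, and vehicle replicate 3 lay within the insulin range. The log2 fold change of 0.47 ± 0.40 (unadjusted p = 0.277) was 0.12 without vehicle replicate 2 and -0.01 with the GC correction. Col15a1, its closest relative, varied between 1.86 and 7.33 CPM within the insulin group, with a log2 fold change of -0.12 ± 0.61. Across the 4 tested collagens of this class the median log2 fold change was 0.55, with 3 positive and 1 negative, and with the GC correction Col4a1 alone stayed positive.

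The fibrillar collagens carry the tensile strength of scar and capsule. Of these 11 genes 8 were tested, 5 with a positive and 3 with a negative log2 fold change, with a median of 0.09 that became 0.60 once vehicle replicate 3 was left out. Leaving out vehicle replicate 2 gave -0.22, and the GC correction gave -0.20. None met the criteria, and none had groups that did not overlap. Col3a1, the type III chain, had the highest level per kilobase of this class (2.26), with 6.61, 17.3 and 19.1 CPM in the vehicle livers and 13.8, 9.22 and 9.32 CPM in the insulin livers. Vehicle replicate 1 was the lowest of the 6 and vehicle replicates 2 and 3 the highest. Its log2 fold change was -0.41 ± 0.41 (unadjusted p = 0.339), and without vehicle replicate 1 it was -0.76 (unadjusted p = 0.0355). Without vehicle replicate 2 or 3 it was -0.25 and -0.15 (unadjusted p = 0.569 and 0.740).

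Col1a1 and Col1a2 are the chains of type I collagen. Col1a2 had 3.12, 10.3 and 13.2 CPM in the vehicle livers and 9.95, 4.24 and 4.11 CPM in the insulin livers, a log2 fold change of -0.54 ± 0.57. Col1a1 had 1.96, 1.90 and 6.06 against 5.76, 1.52 and 2.72 CPM, a log2 fold change of 0.00 ± 0.63. For both genes vehicle replicate 3 was the highest library and insulin replicate 1 the highest of its group, and the range within a group was wider than the distance between the means.

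Col5a1 and Col5a3 are chains of type V collagen, which regulates fibril diameter. Col5a1 lay between 0.737 and 2.86 CPM in all 6 livers, and Col5a3 had 10.3, 1.90 and 9.16 CPM in the vehicle livers against 8.15, 11.1 and 7.98 CPM with insulin. The log2 fold changes were 0.17 ± 0.51 and 0.35 ± 0.54. For both, vehicle replicate 2 was the lowest library, and without it the log2 fold changes were -0.19 and -0.09. Col27a1 had 9.94, 2.03 and 3.20 CPM in the vehicle livers and 5.67, 10.2 and 12.2 CPM with insulin, a log2 fold change of 0.88 ± 0.59 (unadjusted p = 0.171), and it was named after its values were seen. Vehicle replicate 1 lay inside the insulin range, and without it the log2 fold change was 1.83 (unadjusted p = 0.00616). Without vehicle replicate 2 or 3 it was 0.51 and 0.64 (unadjusted p = 0.345 and 0.357). With the GC correction it was 0.47 (unadjusted p = 0.345).

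The beaded-filament collagens, of type VI, form microfibrils next to basement membranes. All 3 that were tested had a negative log2 fold change in edgeR, which turned positive under limma voom with sample weights (0.14, 0.06 and 0.16). The edgeR values were -0.42 ± 0.45 for Col6a1, -0.02 ± 0.60 for Col6a2 and -0.41 ± 0.45 for Col6a3, with unadjusted p of 0.377, 0.970 and 0.393. Col6a1 had 2.91, 5.71 and 8.97 CPM in the vehicle livers and 6.03, 3.42 and 3.69 CPM in the insulin livers. Vehicle replicate 3 was the highest library for all 3 genes, and without it the log2 fold changes were 0.03, 0.78 and -0.05.

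Among the collagens that sit on fibrils, Col16a1 had 1.0, 0.123 and 1.48 CPM in the vehicle livers and 2.12, 1.69 and 1.66 CPM in the insulin livers. The groups did not overlap, and vehicle replicate 2 was far below the rest. Its log2 fold change was 1.04 ± 0.68 (unadjusted p = 0.165), and it was 0.55 without vehicle replicate 2. Col14a1, at 3.02 CPM per kilobase the highest of this class, had 14.8, 19.1 and 21.8 against 24.4, 25.2 and 11.7 CPM, with a log2 fold change of 0.14 ± 0.33. Col12a1 was the steadiest collagen of the class, at 1.47 to 2.19 CPM in all 6 livers and a log2 fold change of -0.13 ± 0.35.

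The transmembrane collagens Col13a1 and Col25a1 pointed opposite ways, with log2 fold changes of 0.26 ± 0.54 and -0.48 ± 0.84. Col13a1 had 5.97, 1.72 and 9.06 CPM in the vehicle livers and 5.63, 8.96 and 5.49 CPM with insulin. Col25a1 had 0.529, 1.17 and 0.0954 against 0.495, 0.563 and 0.185 CPM. Vehicle replicates 2 and 3 were the extremes for both, in opposite order.

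All 11 laminin chains were tested. None met the criteria, none had groups that did not overlap, and 6 log2 fold changes were positive and 5 negative. The highest level per kilobase was that of Lamb3 (2.47), followed by Lamc1 (1.21) and Lama3 (1.10). Lama3 and Lamb3 are chains of the laminin of epithelial anchorage, and Lamc1 is the gamma chain shared by most laminins.

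Lamb3 had 10.5, 11.3 and 5.91 CPM in the vehicle livers and 17.9, 10.8 and 15.8 CPM in the insulin livers. Insulin replicate 2 lay within the vehicle range, and vehicle replicate 3 was the lowest. The log2 fold change was 0.68 ± 0.33 (unadjusted p = 0.0695), it was 0.86 without vehicle replicate 2 (unadjusted p = 0.0307) and 0.87 without insulin replicate 2 (unadjusted p = 0.0495), and it was 0.21 with the GC correction. Without vehicle replicate 3 it was 0.44 (unadjusted p = 0.168). G0s2, an inhibitor of lipolysis in fat and liver, lies within the annotated span of Lamb3 without an exon in common, at 296, 191 and 274 CPM in the vehicle livers and 670, 541 and 312 CPM with insulin, and its part in the Lamb3 counts was not tested.

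Lama3 had 13.2, 20.0 and 1.34 CPM in the vehicle livers and 10.1, 11.0 and 14.3 CPM with insulin, a log2 fold change of 0.04 ± 0.74. Vehicle replicate 3 was several times below every other library, and it was also the lowest for Lamb3. Without it the log2 fold change of Lama3 was -0.49, and without vehicle replicate 2 it was 0.71.

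Lamc1 was the steadiest laminin, at 8.30, 9.52 and 9.16 CPM in the vehicle livers and 10.6, 9.13 and 8.72 CPM in the insulin livers (log2 fold change 0.08 ± 0.23). Its beta partners pointed apart. Lamb1, found in most tissues, had 2.70, 2.09 and 4.10 against 4.82, 4.03 and 3.69 CPM, and its log2 fold change was 0.49 ± 0.35 (unadjusted p = 0.196), and 0.80 without vehicle replicate 3 (unadjusted p = 0.0452). Without vehicle replicate 2, its lowest library, Lamb1 was at 0.30 (unadjusted p = 0.342). Lamb2, a chain of vessel, kidney and synapse basement membranes, had 2.43, 3.68 and 5.39 against 3.33, 2.29 and 2.77 CPM, and its log2 fold change was -0.46 ± 0.38 (unadjusted p = 0.264). With the GC correction Lamb2 was at -1.06 (unadjusted p = 0.0487). Vehicle replicate 3 was the highest vehicle library for both.

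The alpha chains of vessels and epithelia also differed in sign. Lama4, the endothelial alpha chain, had 1.69, 5.34 and 4.29 CPM in the vehicle livers and 2.66, 2.12 and 2.49 CPM with insulin, a log2 fold change of -0.64 ± 0.45 (unadjusted p = 0.191), and without vehicle replicate 1 it was -0.99 (unadjusted p = 0.0223). Vehicle replicate 2 was its highest library, and without it the log2 fold change of Lama4 was -0.30 (unadjusted p = 0.493). Lama5, an alpha chain of mature epithelia and vessels, had 2.27, 0.614 and 3.29 against 4.41, 2.08 and 4.43 CPM, a log2 fold change of 0.81 ± 0.59 (unadjusted p = 0.208) that was 0.39 without vehicle replicate 2. Lama2, the alpha chain of muscle, was near the lower end of what was tested, at 0.159 to 1.14 CPM.

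The integrins that bind collagen include Itga1, Itga2 and Itga10, each a partner of Itgb1. Itga1 had 21.5, 25.0 and 24.3 CPM in the vehicle livers and 17.8, 20.4 and 17.6 CPM in the insulin livers. The groups did not overlap and each was narrow, with means of 23.6 ± 1.85 and 18.6 ± 1.59 CPM (SD, n = 3 each). The log2 fold change was -0.34 ± 0.21 (unadjusted p = 0.133), and it lay between -0.42 and -0.15 under the 15 other settings tried, each of which kept it negative. With the GC correction it was -0.17 (unadjusted p = 0.424). Exons of Itga1 overlap those of Gm49395 on the same strand, a gene at 2.12 to 5.03 CPM, so that the Itga1 counts are uncertain to that extent. Itga10 had 0.582, 0.614 and 0.334 against 0.630, 0.779 and 1.57 CPM (log2 fold change 0.96 ± 0.55). Its highest vehicle liver and lowest insulin liver were nearly level. Itga2 ranged from 0.185 to 1.19 CPM with a log2 fold change of -0.19 ± 0.76.

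Of the laminin-binding alpha chains, Itga3 had 3.75, 4.11 and 3.24 CPM in the vehicle livers and 6.30, 4.33 and 7.47 CPM in the insulin livers. The lowest insulin liver was just above the highest vehicle liver. Its log2 fold change was 0.70 ± 0.31 and its unadjusted p, 0.0529, was the lowest among members outside the criteria. Without vehicle replicate 2 it was 0.79 (unadjusted p = 0.0332), without insulin replicate 2 it was 0.90 (unadjusted p = 0.0381), and with the GC correction it was 0.10 (unadjusted p = 0.817). Itga6 had 1.80, 2.64 and 1.96 against 1.26, 2.03 and 0.784 CPM, a log2 fold change of -0.64 ± 0.45. Itga7 had 6.82, 3.07 and 9.82 against 7.20, 7.36 and 11.7 CPM, and its exons overlap those of Mettl7b on the opposite strand, a gene at 298 to 513 CPM, so that the Itga7 counts are uncertain.

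Itga8 (ENSMUSG00000026768, chr2:12106632-12301922, minus strand) encodes the alpha chain that joins Itgb1 to bind nephronectin and other ligands with an RGD motif, and it is known from mesenchymal cells. The 250 bases before its RefSeq start site (GRCm38.p6, chr2:12301945-12302194, minus strand) are shown because it was the member with the lowest p. Its window of 300 bases holds no CCAAT box, no GGGCGG box and no TATAAA box on either strand, so nothing is in capitals.
Itga8: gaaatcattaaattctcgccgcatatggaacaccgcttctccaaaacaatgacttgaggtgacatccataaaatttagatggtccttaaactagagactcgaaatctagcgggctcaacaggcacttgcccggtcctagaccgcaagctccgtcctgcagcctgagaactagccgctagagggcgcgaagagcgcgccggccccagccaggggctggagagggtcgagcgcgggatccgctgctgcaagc
Itga8 had 29, 28 and 109 counts in vehicle replicates 1, 2 and 3 and 18, 13 and 13 counts in the insulin replicates. On the CPM scale these were 1.53, 1.72 and 5.20 against 0.810, 0.563 and 0.600. Every insulin liver was below every vehicle liver, and vehicle replicate 3 was about 3 times the other vehicle livers.

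The log2 fold change of Itga8 was -2.10 ± 0.58 (SE, unadjusted p = 0.00669, adjusted p = 0.852). It was -1.30 without vehicle replicate 3 (unadjusted p = 0.0218), -2.34 without vehicle replicate 2 and -2.04 with the GC correction (unadjusted p = 0.0124). In all 15 other settings tried the unadjusted p stayed under 0.05, with log2 fold changes from -2.39 to -1.30. Npnt, which encodes nephronectin, had 0.740, 0.675 and 0.334 CPM in the vehicle livers and 1.58, 0.909 and 1.80 CPM in the insulin livers, and met the criteria in the other direction (log2 fold change 1.29 ± 0.50, unadjusted p = 0.0335). Without vehicle replicate 3 that value was 1.0 for Npnt (unadjusted p = 0.0881), and the call was also lost without insulin replicate 1 or 3 and under voom (unadjusted p = 0.0992, 0.119 and 0.122). The summed CPM of 9 stellate cell markers was 267 to 326 in the vehicle livers and 204 to 357 in the insulin livers, and their part in the Itga8 result was not tested.

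The other alpha chains that bind RGD ligands or vascular counter-receptors gave small values. Itgav, shared by receptors that activate latent TGF-beta, had 22.6, 37.4 and 24.8 CPM in the vehicle livers and 23.3, 20.6 and 23.4 CPM with insulin, a log2 fold change of -0.33 ± 0.25. Vehicle replicate 2 was the high library, and without it the log2 fold change was -0.08. Itga5, the fibronectin receptor chain, had 14.4, 7.43 and 14.8 against 12.8, 14.6 and 20.2 CPM, with a log2 fold change of 0.38 ± 0.33 that was 0.12 without vehicle replicate 2 and 0.00 with the GC correction. Itga9 stayed between 9.52 and 14.1 CPM, with a log2 fold change of 0.02 ± 0.26.

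The 3 tested alpha chains of leukocytes had positive log2 fold changes, and none passed the test. Itgam, the CD11b chain of neutrophils and macrophages, had 1.59, 0.675 and 0.954 CPM in the vehicle livers and 2.07, 1.60 and 2.08 CPM with insulin, and the groups did not overlap, though insulin replicate 2 and vehicle replicate 1 were nearly level. Its log2 fold change was 0.83 ± 0.43 (unadjusted p = 0.0931), and 1.22 without vehicle replicate 1 (unadjusted p = 0.0332). Without vehicle replicate 2, the lowest library, it was 0.60 (unadjusted p = 0.162). Itgal, the CD11a chain of lymphocytes and other leukocytes, had 15.5, 18.8 and 8.20 against 24.0, 11.3 and 19.2 CPM (0.36 ± 0.39 on the log2 scale). Itgax, the CD11c chain, ranged from 0.238 to 1.44 CPM with a log2 fold change of 0.75 ± 0.69.

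Itgb2, the beta chain of these leukocyte receptors, had 15, 8.66 and 7.01 CPM in the vehicle livers and 25.8, 12.5 and 13.8 CPM in the insulin livers. Insulin replicate 1 was the highest library, and vehicle replicate 1 lay within the insulin range. Its log2 fold change was 0.77 ± 0.39 (unadjusted p = 0.0875), and it was 1.15 without vehicle replicate 1 (unadjusted p = 0.0263). Without insulin replicate 1 it was 0.37 (unadjusted p = 0.383), and without vehicle replicate 3 it was 0.56 (unadjusted p = 0.219). Markers of the cells that carry these chains varied as widely. The summed CPM of 7 neutrophil markers was 49.6, 81.2 and 4.86 in the vehicle livers and 75.6, 34.4 and 32.4 in the insulin livers, and that of 8 Kupffer cell markers was 302, 268 and 390 against 546, 295 and 281. Insulin replicate 1 was thus the highest library for the summed Kupffer cell list as well. Among its 8 markers it was the highest for 4, and vehicle replicate 3 was the highest for 3. In the neutrophil list S100a8 gave 50.3 of the CPM of vehicle replicate 2. Gene by gene, insulin replicate 1 was the highest library for 5 of the 6 tested neutrophil markers and vehicle replicate 3 the lowest for all 6, and these were also the highest and the lowest library for Itgb2. The part of either cell type in the leukocyte integrin values was not tested.

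Itgb1 (ENSMUSG00000025809) had 176, 305 and 183 CPM in the vehicle livers and 194, 185 and 164 CPM in the insulin livers. Leaving aside vehicle replicate 2, the 5 other livers lay between 164 and 194 CPM. The log2 fold change was -0.29 ± 0.28 (unadjusted p = 0.321) and was 0.01 without vehicle replicate 2. Itgb5, a vitronectin receptor chain, had 34.1, 41.6 and 56.2 against 41.3, 34.9 and 57.2 CPM, and Itgb3, the beta chain of platelets and some endothelium, had 4.02, 2.76 and 4.77 against 5.22, 4.59 and 2.08 CPM. Their log2 fold changes were 0.02 ± 0.28 and 0.04 ± 0.42. The 3 members that share only the name had log2 fold changes of -0.13 ± 0.20 (Col4a3bp), -0.19 ± 0.22 (Itgb1bp1) and -0.33 ± 0.41 (Itgb3bp).

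Chains that assemble together were also compared as a ratio of their counts within each library, which does not depend on the scaling between libraries. The ratio of Col4a1 to Col4a2 was 5.17, 4.05 and 1.93 in the vehicle livers and 4.41, 4.67 and 4.27 in the insulin livers. Vehicle replicate 3 was the library out of range, and the mean log2 ratio was 1.78 ± 0.74 against 2.15 ± 0.07 (SD, n = 3 each). The ratio of Lamb1 to Lamc1 was likewise tight with insulin (0.453, 0.441 and 0.423) and loose with vehicle (0.325, 0.219 and 0.448). The ratio of Col1a1 to Col1a2 ran from 0.186 in vehicle replicate 2 to 0.663 in insulin replicate 3. None of 6 ratios differed between the groups in an exact two-sided permutation test (exact p from 0.30 to 0.70), which with 3 against 3 livers cannot go below 0.1.

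**Figure D3:**
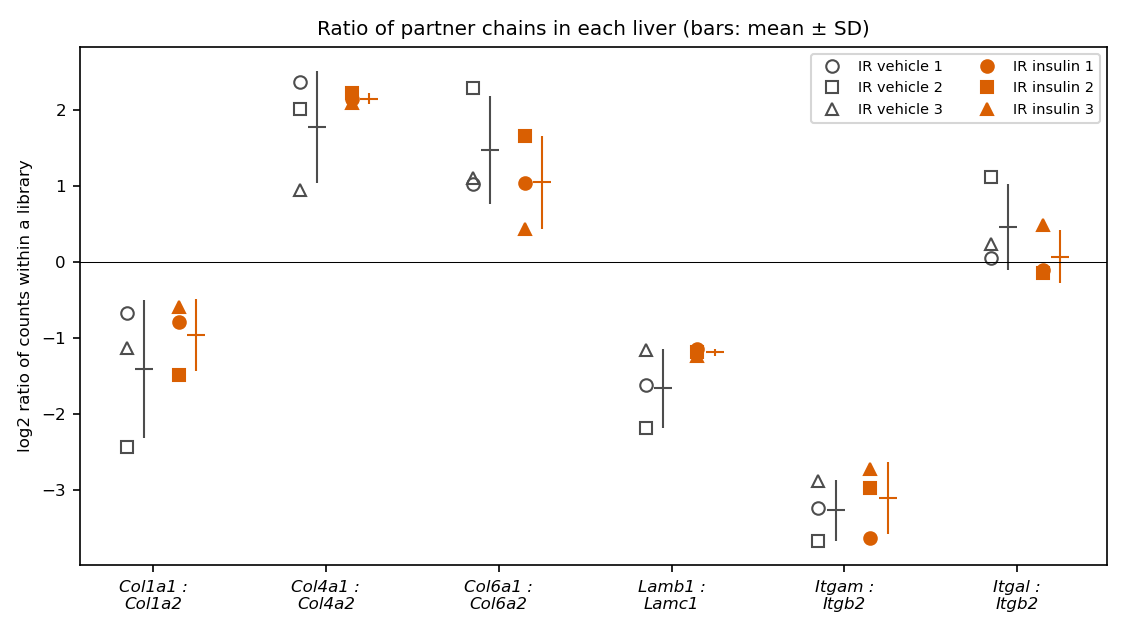
Log2 ratio of the counts of partner chains within each library (y axis) for 6 pairs, with open symbols for vehicle, filled symbols for insulin, and the mean ± SD beside each group (n = 3). The insulin livers sit within a narrow band for Col4a1 to Col4a2 (SD 0.07) and Lamb1 to Lamc1 (SD 0.05), where the vehicle livers spread over SD 0.74 and 0.52.

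The wider spread among vehicle livers held for collagens and laminins as for other genes, but hardly for integrins. The median SD of log2 CPM among the tested members was 0.68 in the vehicle group and 0.33 in the insulin group, beside 0.52 and 0.18 over all genes tested. It was 0.93 and 0.41 for collagens, 0.85 and 0.26 for laminins and 0.44 and 0.39 for integrins. The SD was larger in the vehicle group for 17 of 20 collagens, 9 of 11 laminins and 10 of 21 integrins, against 11402 of 13377 genes. Vehicle replicate 3 was the highest of the 6 libraries for 10 of 20 collagens (50.0%), against 23.4% of all genes tested. Vehicle replicate 2 was the lowest for 8 of 20 (40.0%), near the 37.4% of all genes. Integrins as a family were thus about as variable in one group as in the other.

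**Figure D4:**
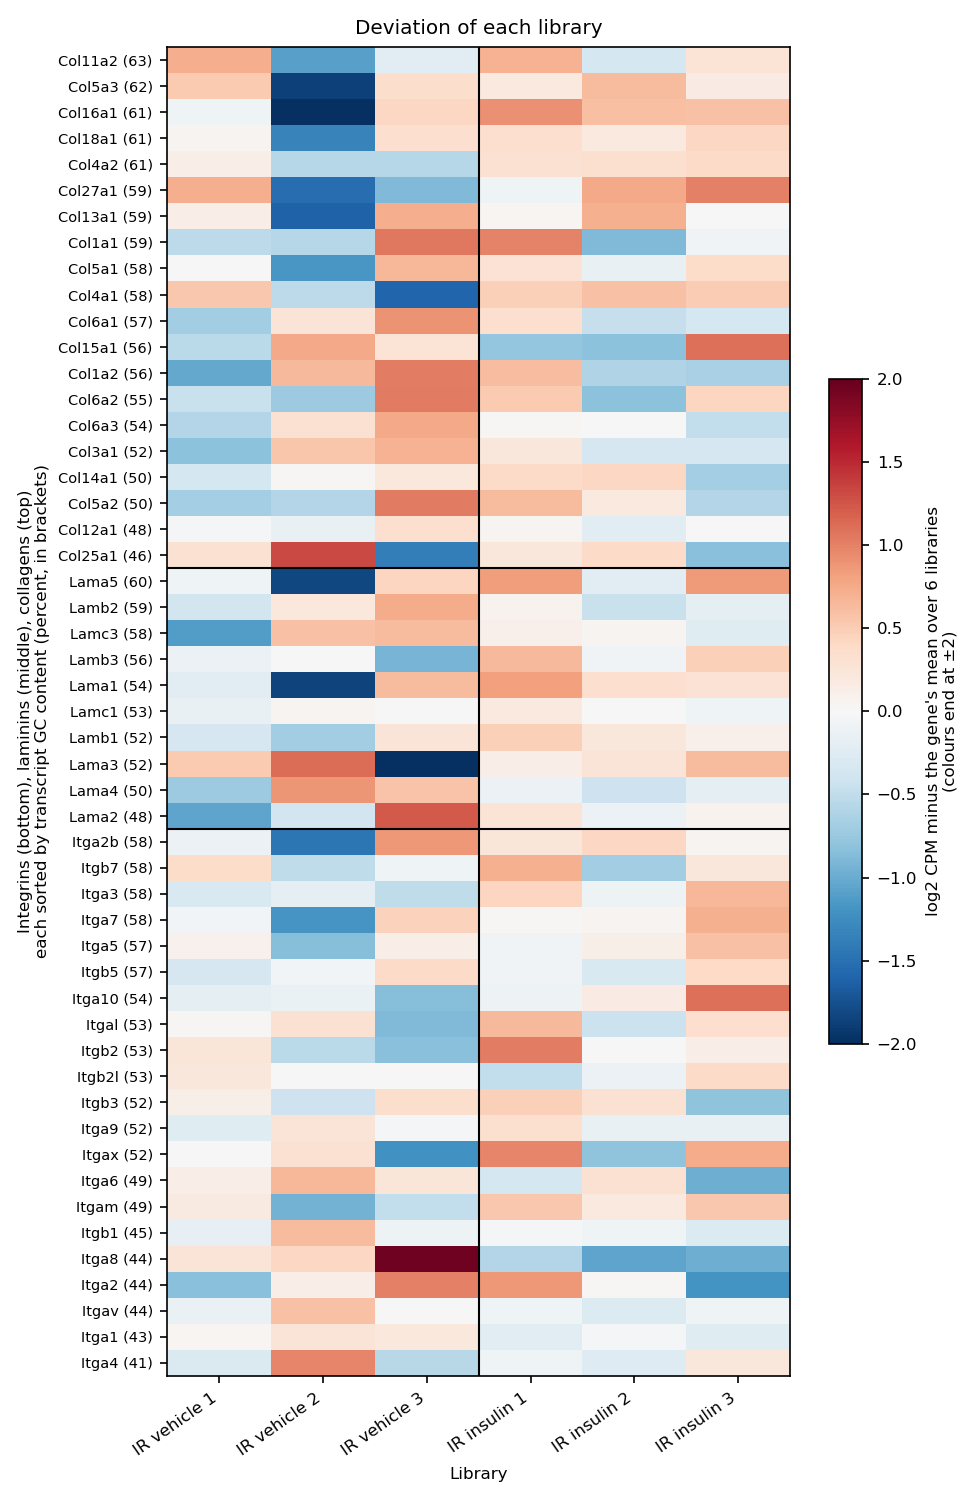
Deviation of each library's log2 CPM from the gene's mean over the 6 libraries (colour, ending at ±2) for 51 of the 52 tested chains, with each family sorted by GC content from high to low. Vehicle replicate 2 is blue in most collagens of high GC content and red in integrins of low GC content, and Lama3 in vehicle replicate 3 and Itga8 in the same library stand out.

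The position of a member on the GC scale moved with its value in vehicle replicate 2. Across the 55 tested members Spearman's rho between GC content and the deviation of that library from the median of the other 5 was -0.59 (a description: the points share 1 library). Of the 27 members above the median GC content of 53.2%, 20 had a positive log2 fold change, and the median was 0.30. Vehicle replicate 2 was the lowest library for 13 of the 27 (48.1%, against 37.4% of all genes tested). Of the 28 at or below that GC content, 10 had a positive log2 fold change, and the median was -0.13. For 11 of these 28 (39.3%, against 35.8% of all genes) vehicle replicate 2 was the highest library. Without vehicle replicate 2 the medians were 0.04 and -0.03, and with the GC correction they were -0.08 and -0.13. Under that correction 2 of the 55 members were past the criteria, both lower with insulin (Itga8 and Lamb2). Over all 13377 genes 379 were lower and 93 higher under it.

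**Figure D5:**
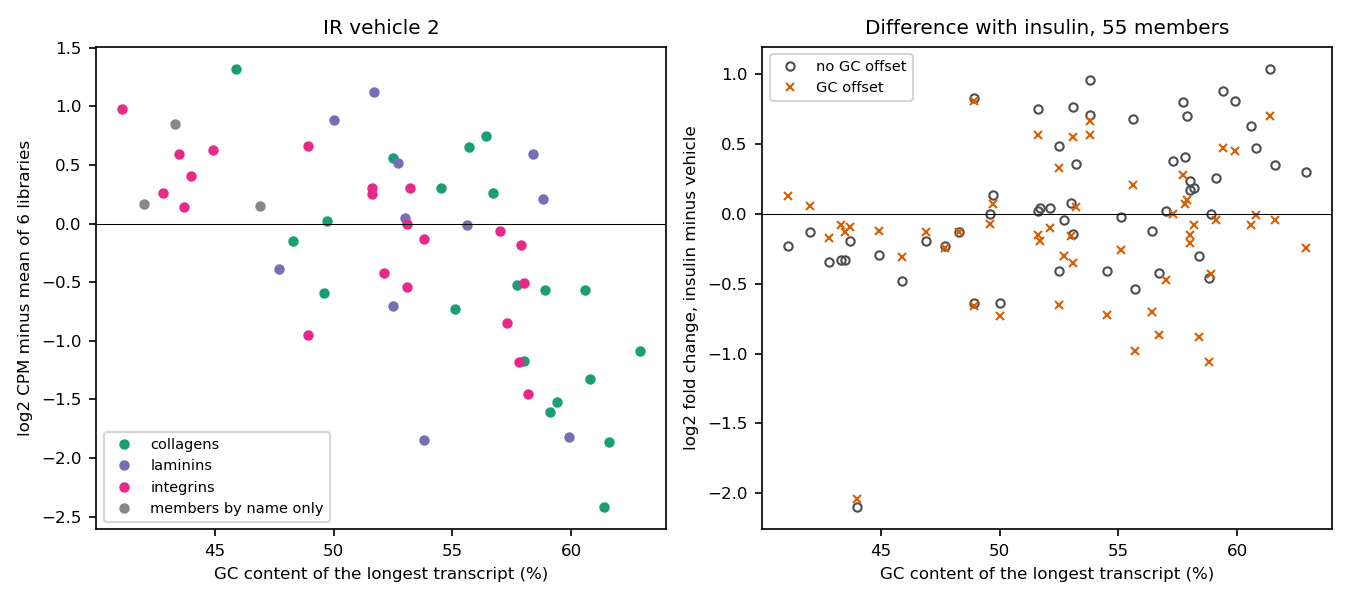
Left, deviation of vehicle replicate 2 from the 6-library mean of log2 CPM (y axis) against GC content of the longest transcript in percent (x axis) for the 55 tested members. Right, log2 fold change of the same members without (circles) and with (crosses) a GC correction; the circles above 0 at high GC content shift downward, as in Col4a2 from 0.63 to -0.08, and Itga8 stays near -2.

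RefSeq promoter windows were found for 62 of the 87 members (68 windows, GRCm38.p6). On either strand, the box GGGCGG was in 52.9% of them against 35.7% of all 32851 windows of the same length. The CCAAT box was in 26.5 against 37.4%, and the TATAAA box in 7.35 against 13.6%. The window of Col4a1 held 1 GGGCGG box and that of Col4a2 held 3.

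Other genes of the matrix pathway were read from lists. Of 24 tested enzymes that modify, fold or export collagen, 1 met the criteria (beside 1.0% of all genes higher and 1.86% lower), P3h2, which hydroxylates proline in basement membrane collagen, with 0.476, 0.184 and 0.334 CPM in the vehicle livers and 0.810, 0.823 and 0.738 CPM in the insulin livers (log2 fold change 1.23 ± 0.51, unadjusted p = 0.0445). Every insulin liver was above every vehicle liver, but the call was lost in DESeq2 (unadjusted p = 0.0844), with the GC correction (1.08, unadjusted p = 0.0516) and without vehicle replicate 2 (0.97, unadjusted p = 0.0837), vehicle replicate 3 (unadjusted p = 0.0880) or any insulin replicate (unadjusted p from 0.0949 to 0.121). The median of the list was 0.25, and it was -0.14 with the GC correction. Of 9 other basement membrane proteins Npnt alone met them, and the list's median was -0.00.

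Of 11 tested matrix proteases and inhibitors 1 met the criteria and was higher with insulin (beside 1.0% of all genes). It was Timp1, an inhibitor of metalloproteinases, with 4.12, 1.84 and 0.858 CPM in the vehicle livers and 8.60, 5.15 and 5.44 CPM with insulin. The groups did not overlap, as for 6.25% of all genes in this direction, and the log2 fold change was 1.49 ± 0.55 (unadjusted p = 0.0267). It ran from 1.09 without vehicle replicate 3 to 2.26 without vehicle replicate 1, and the call was lost without vehicle replicate 2 (1.37, unadjusted p = 0.0576) or insulin replicate 1 (1.22, unadjusted p = 0.0920). Of 8 other receptors of collagen and laminin 1 met the criteria and was lower with insulin (beside 1.86% of all genes). It was Sdc4, a cell-surface proteoglycan, with 238, 276 and 444 against 202, 210 and 192 CPM (log2 fold change -0.67 ± 0.28, unadjusted p = 0.0471). Vehicle replicate 3 was the high library, and without it the log2 fold change was -0.35 (unadjusted p = 0.134). The call was also lost without any insulin replicate (unadjusted p from 0.106 to 0.134).

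No gene met the criteria among 12 other matrix proteins and ligands, 17 adhesion proteins that link integrins to the cytoskeleton, or 8 genes of TGF-beta and fibrogenic signals, with medians of -0.07, 0.01 and -0.09. In the adhesion list, Vcl, the vinculin that links talin to actin, had the lowest p, with 20.3, 14.7 and 10.9 CPM in the vehicle livers and 19.7, 19.3 and 30.3 CPM with insulin (log2 fold change 0.60 ± 0.31, unadjusted p = 0.0903), and the groups overlapped. Tln1, the talin that activates integrins, had 90.7, 67.5 and 62.7 CPM in the vehicle livers and 94.8, 96.7 and 105 CPM with insulin (log2 fold change 0.43 ± 0.23, unadjusted p = 0.0986). For Tln1 all insulin livers were above all vehicle livers, but with the GC correction its log2 fold change was -0.06 (unadjusted p = 0.838). Tgfbr1, a TGF-beta receptor, had 24.3, 68.3 and 28.1 against 22.6, 25.3 and 28.0 CPM, and only vehicle replicate 2 stood apart.

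Marker lists of the cells that make or carry these chains were summed in each library. The 7 hepatocyte markers came to 78893, 169766 and 114032 CPM in the vehicle livers and to 65138 to 82773 CPM with insulin, so that the labelled tissue was plain in all 6 libraries. Alb alone gave 138554 CPM of vehicle replicate 2, which was the highest library for 3 of the 7 markers and the lowest for 3. The 9 sinusoidal endothelial markers came to 247, 229 and 429 CPM in the vehicle livers and to 248 to 269 CPM with insulin, and vehicle replicate 3 was the highest there. Bile duct markers summed to 15.3 to 20.8 CPM against 17.2 to 26.1 CPM, with Cftr at 0 in every library. Mesothelial markers summed to 10.1 to 23.2 against 9.83 to 23.6 CPM, T cell markers to 3.0 to 4.07 against 2.60 to 3.42 CPM, B cell markers to 2.49 to 12.0 against 1.48 to 4.10 CPM, and platelet markers to 2.15 to 2.82 against 0.969 to 3.03 CPM with Gp1bb at 0 throughout. The part of these cell types in the values of the matrix genes was not tested.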

How the data were processed

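The authors' methods state that liver RNA was made into libraries with the NEBNext Ultra kit and sequenced on an Illumina HiSeq. They aligned the reads with Bowtie2 2.2.3 to mouse build 38 (mm10) and compared groups with DESeq2. The authors deposited whole-number read counts per gene, neither normalized nor pooled. The counting program, annotation release and strand setting are not given in the sources used here. Groups came from the sample labels, and all 6 sample columns were used.

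Counts were fitted over all 13377 genes kept by filterByExpr (minimum count 10, minimum total 15) by edgeR 4.0.16 (R 4.3.3; glmQLFit and its quasi-likelihood F test), with TMM scaling and no covariate. P values were adjusted by Benjamini-Hochberg over these genes, and standard errors come from the F statistic. The biological coefficient of variation was 0.357, the spread between mice limits precision, and p-values measure that spread only. The script was tested on simulated data with a smaller spread between libraries and no GC trend. That test therefore does not show how many changes are recovered at the spread seen here. Lengths, GC content and positions are from GENCODE release 21 for mouse (build 38), which held 99.8% of the genes. The GC correction was a loess offset (span 0.5) per library. DESeq2 1.42.0, limma 3.58.1 (voom with sample weights), other scalings and filters, a replicate block and leaving out each library were alternatives.

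The members and lists were chosen with earlier results of these data known. Named were members past the criteria, the 3 with the highest level per kilobase of each subgroup, members whose groups did not overlap (at least 1 CPM in the higher group), 25 listed matrix genes, and, in 6 of the other lists, 1 or both of the 2 genes with the smallest p. Any other gene was named after its values were seen. The values of 1 tested member are not reported here, and it stays in the fits and counts. Exons of 18 tested members overlap those of another annotated gene, and for 7 of these the other gene reached 1 CPM.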

Additional observations from a re-analysis of the deposited data

How the results depend on the processing

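Over 15 alternatives no setting gave a gene an adjusted p under 0.05. The number of members past the criteria and higher with insulin was 1, and 0 to 5 when each library was left out in turn. The 5 without vehicle replicate 1 were Col4a1, Col4a2, Col27a1, Itgb2 and Itgam. It was 2 with upper-quartile factors, 3 with no filter on low counts, 0 with voom, 0 with the GC offset and 0 with the GC offset and replicate block. The number lower with insulin was 1, then 2 with the GC offset and 1 to 3 when a library was left out, and the 3 without vehicle replicate 1 were Itga8, Col3a1 and Lama4. Over all genes, 134 were higher (295 with no filter, 93 with the GC offset, 32 to 616 when a library was left out). Lower were 249 (447 with no filter, 105 with voom, 379 with the GC offset, 67 to 733 when a library was left out). The 616 and the 733 both came without vehicle replicate 1, where 13750 genes and 56 members were tested. The median log2 fold change ran from -0.13 to 0.47 for collagens and from 0.04 to 0.22 for integrins when a library was left out, it was 0.50 for laminins with voom, and it was -0.09 for integrins with the GC offset. The cause was not tested.

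Replicate numbers are shared by the groups, but same-numbered livers did not deviate together (r of -0.0390, 0.0688 and 0.0174 for numbers 1, 2 and 3 across 13377 genes, which are not independent replicates). With the replicate block 203 genes were higher and 118 lower, and 2 members were higher, Col4a1 and Itgb2, while Col4a2 was not.

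Of 45 named members, 27 changed sign in some setting, as follows, and 6 of these lay beyond 1 SE of 0 (Col4a2, Col18a1, Col3a1, Itga5, Itgb1 and Lama4). With the GC offset Col13a1 was at -0.04, Col18a1 at -0.01, Col1a1 at -0.43, Col4a2 at -0.08, Col4a3bp at 0.06, Col5a1 at -0.15, Col5a3 at -0.04, Itga9 at -0.15, Itgb3 at -0.10, Itgb5 at -0.47, Lama3 at -0.19 and Lamc1 at -0.16. With the GC offset and replicate block Col13a1 was at -0.06, Col18a1 at -0.01, Col1a1 at -0.52, Col4a3bp at 0.09, Col5a1 at -0.12, Col5a3 at -0.04, Itga5 at -0.02, Itga9 at -0.13, Itgb3 at -0.18, Itgb5 at -0.40, Lama2 at 0.12 and Lamc1 at -0.14. With voom Col1a2 was at 0.34, Col25a1 at 0.22, Col3a1 at 0.27, Col6a1 at 0.14, Col6a2 at 0.06, Col6a3 at 0.16, Itga2 at 0.57, Itgb1 at 0.00, Lama2 at 0.69, Lama4 at 0.08 and Lamc3 at 0.77. With RLE factors Col1a1 was at -0.01, with upper-quartile factors Col6a2 was at 0.01, and with no filter it was at 0.01. With the replicate block Col6a2 was at 0.09, Itgb3 at -0.01 and Lama2 at 0.11. When a library was left out, log2 fold changes ran from -0.22 to 0.04 for Col12a1, -0.16 to 0.79 for Col13a1, -0.04 to 0.43 for Col14a1, -0.64 to 0.78 for Col1a1, -1.01 to 0.44 for Col25a1, -0.19 to 0.67 for Col5a1, -0.09 to 0.71 for Col5a3, -0.74 to 0.03 for Col6a1, -0.33 to 0.78 for Col6a2, -0.87 to 0.49 for Itga2, -0.15 to 0.16 for Itga9, -0.43 to 0.01 for Itgb1, -0.20 to 0.36 for Itgb3, -0.56 to 0.15 for Itgb3bp, -0.20 to 0.23 for Itgb5, -0.66 to 0.99 for Lama2, -0.49 to 0.71 for Lama3, -0.00 to 0.15 for Lamc1 and -0.74 to 0.03 for Lamc3.

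With 3 livers a group the median SE of a member's log2 fold change was 0.45, and differences up to 1.04 (Col16a1) did not pass the test at this spread. In each library 3 counts came to 0.130 to 0.184 CPM. Counting error covers reads only, not molecules.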

Other observations

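The type IV collagen genes lie in head-to-head pairs. Besides Col4a1 and Col4a2, the pair of Col4a4 and Col4a3 on chromosome 1 had annotated ends 71 bases apart, and the pair of Col4a6 and Col4a5 on the X chromosome had ends 1308 bases apart. These chains form the networks of kidney, lung and smooth muscle basement membranes and were near the limit of counting here. Col4a3 had 32 counts and Col4a4 had 44 counts over all 6 libraries, and Col4a6 had 17 counts. They were chosen after their values were seen.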
